A study of Mus musculus with 2 samples.

Results

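Ubb and Rps27a are 2 of the genes from which mouse cells make ubiquitin, and both were taken by their gene symbols from the 32285 genes of the count matrices. They were chosen by name, with earlier results of these data known. Their transcripts were followed across 13 classes of bone marrow cells and 5 erythroid stages in 1 control mouse and 1 double knockout (DKO) mouse, each 2 months old and each sequenced as 1 library of femoral marrow with a 3' single-cell kit. The control mouse, labelled WT, came from the same crosses, carried Ddx41fl/fl, had no VavCre and kept wild-type cGas. The DKO mouse was VavCre:Ddx41fl/fl cGas-/-, so it lacked the DNA and RNA helicase Ddx41 in the cells where Vav-driven Cre is active, which are hematopoietic and some endothelial cells, and the DNA sensor cGas in every cell. The floxed Ddx41 alleles were shared by both mice. The comparison addressed how gene expression in marrow cells differs when both proteins are missing.

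Ubiquitin is a small protein that cells attach to other proteins, most often to send them to the proteasome for degradation. It is never translated alone. Polyubiquitin genes such as Ubb encode head-to-tail copies that deubiquitinases cut apart, and their transcription rises under heat shock and oxidative stress. Rps27a encodes 1 ubiquitin fused to a protein of the small ribosomal subunit, so its transcript is regulated with those of the ribosome. Maturing red cells clear ribosomes, mitochondria and most of their proteins before and after they expel the nucleus, and the ubiquitin system is one of the routes by which they do so.

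Both genes lie on mouse chromosome 11. Ubb (ENSMUSG00000019505) occupies chr11:62551171-62553213 on the plus strand of GRCm38, and its coding sequence of 915 bases lies in 1 of its 2 exons. That coding sequence holds 4 ubiquitin units of 228 bases in a row, followed by 3 bases before the stop codon. Rps27a (ENSMUSG00000020460) occupies chr11:29545846-29548109 on the minus strand, with 468 coding bases in 5 coding exons, of which the first 228 encode ubiquitin and the other 240 encode the ribosomal protein. The coding units below are shown because both genes make the same protein from different bases. They are the last Ubb unit, which is the one nearest to the 3' end that was sequenced (chr11:62552830-62553057), and the unit of Rps27a, which is spread over 4 exons (chr11:29547681-29547728, chr11:29547206-29547260, chr11:29546703-29546788 and chr11:29546384-29546422). Capitals mark the bases at which they differ.
Ubb unit 4: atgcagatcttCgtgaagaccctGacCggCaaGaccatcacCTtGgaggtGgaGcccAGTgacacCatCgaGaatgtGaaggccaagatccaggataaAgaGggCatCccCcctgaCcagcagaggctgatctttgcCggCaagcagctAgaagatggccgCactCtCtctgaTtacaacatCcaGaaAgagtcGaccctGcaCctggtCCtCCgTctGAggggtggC
Rps27a unit 1: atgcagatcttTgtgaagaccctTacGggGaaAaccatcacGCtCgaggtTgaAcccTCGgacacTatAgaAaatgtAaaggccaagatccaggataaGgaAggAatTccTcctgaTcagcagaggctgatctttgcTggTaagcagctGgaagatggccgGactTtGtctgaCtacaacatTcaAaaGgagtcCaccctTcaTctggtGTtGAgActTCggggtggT
The 2 units differed at 44 of 228 bases, of which 37 were the last base of a codon. The 4 Ubb units were far closer to each other, with 2 to 10 differing bases in the 6 pairs. These sequences bear on the counting, because Cell Ranger keeps a read that matches several places only where a single annotated gene is among them. Of the 411 words of 90 bases in the last 500 bases of the Ubb transcript, 47.9% also occurred in 2 other genes. Of these, Gm8797 was counted, with 613 control and 331 DKO UMIs. It holds 23.4% of the Ubb words, so reads of Ubb and Gm8797 may be split or lost, and Ubb is counted with some uncertainty. For Rps27a 91.7% of the words occurred in 4 other genes such as the pseudogene Rps27a-ps2, which were not analysed here, and 0% in a gene analysed here.

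A UMI is a molecular tag that counts 1 captured transcript once, from its 3' end, so levels were not divided by transcript length. Levels are CPM, the UMIs of a gene per 1000000 UMIs of a class, summed over cells, and ratios are the log2 ratio of DKO over control CPM. With 1 library per genotype there is no replicate check and no test between genotypes. The 95% intervals given here cover counting error only, not the spread between mice. After filtering, 18624 control cells with 118533366 UMIs and 13729 DKO cells with 114830668 UMIs were kept, with medians of 4874 and 6904 UMIs per cell. The deposited control matrix lists every barcode and needed cell calling, the DKO matrix lists called cells of at least 500 UMIs, and 75 barcodes occurred in both libraries. Counts of the targeted genes went in the direction of the labels, with 2398 control and 919 DKO UMIs of Ddx41 (log2 ratio -1.34) and 1609 and 832 UMIs of Cgas (-0.90). Neither gene was at 0 in the DKO library, and whether the counted 3' ends lie within the deleted parts is not given in the sources used here.

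Summed over all cells, the 2 ubiquitin genes had similar levels in control cells and different levels in DKO cells. Ubb had 247946 control UMIs (2092 CPM) and 118224 DKO UMIs (1030 CPM). Its ratio was -1.02 (-1.03 to -1.01), and it ranked 30 among the genes of control cells and 75 among those of DKO cells. Rps27a had 260235 control UMIs (2195 CPM) and 190302 DKO UMIs (1657 CPM), a ratio of -0.41 (-0.41 to -0.40), at rank 28 and 30. Hemoglobin genes held 28.5% of all control UMIs and 36.3% of DKO UMIs. Scaled to UMIs outside the hemoglobin genes, the ratios were -0.86 for Ubb and -0.24 for Rps27a. Whole-library values mix classes of different size, so the classes are given one by one.

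In the control library, Ubb was highest in late erythroid-like cells, which carry most of the hemoglobin RNA. It reached 3757 CPM there (3735 to 3779, 5703 cells), the rank of 6 among all genes, and a median cell held 19 Ubb UMIs. Macrophage-like cells followed with 2317 CPM and megakaryocyte-like cells with 2024 CPM, and these 3 classes differed beyond their counting intervals. The place of macrophage-like cells moved with hemoglobin RNA, which held 36.3% of their UMIs. In cells with under 5% hemoglobin UMIs, a limit chosen after the values were seen, their Ubb level was 1437 CPM, below that of megakaryocyte-like (1763), cKit+ progenitor-like (1685), basophil or mast-like (1628), monocyte-like (1621), dendritic-like (1550) and B cell-like cells (1525). In all cells, next came cKit+ progenitor-like (1744 CPM), B cell-like (1708), monocyte-like (1704), basophil or mast-like (1696) and dendritic-like cells (1691), whose neighbors in this order had overlapping intervals. Stromal-like cells (1547) overlapped both the dendritic-like and the T or NK cell-like cells (1542). The lowest levels were 1329 CPM in early erythroid-like, 1193 in neutrophil-like and 1073 in plasma cell-like cells. The place of early erythroid-like cells depends on the scale, because hemoglobin genes held 29.7% of their control UMIs. Scaled to UMIs outside the hemoglobin genes, they were at 1891 CPM and came at position 5 among the classes. In cells with under 5% hemoglobin UMIs, stromal-like cells had 712 CPM. In the DKO library megakaryocyte-like cells came first at 2134 CPM and late erythroid-like cells next at 1444 CPM, but 5 of the 102 DKO megakaryocyte-like cells held 86.1% of that class's Ubb UMIs. Scaled to UMIs outside the hemoglobin genes, late erythroid-like cells were first in both libraries, in the DKO library at 10889 CPM beside 2309 CPM in megakaryocyte-like cells.

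Rps27a had a different order. It was highest in cKit+ progenitor-like cells at 5424 CPM (5365 to 5485), followed by basophil or mast-like cells at 4237 CPM, monocyte-like cells at 4031 CPM and T or NK cell-like cells at 3865 CPM. Dendritic-like (3044) and B cell-like cells (2971), whose intervals overlapped, and early erythroid-like cells (2416) were intermediate. Macrophage-like (1582), neutrophil-like (1489), plasma cell-like (1465) and megakaryocyte-like cells (1368) formed a run of neighbors with overlapping intervals. Stromal-like cells had 793 CPM. Late erythroid-like cells were lowest at 106 CPM (103 to 110), and a median cell of this class held 0 Rps27a UMIs. The 13 classes had the same order of Rps27a levels in the DKO library.

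**Figure D1:**
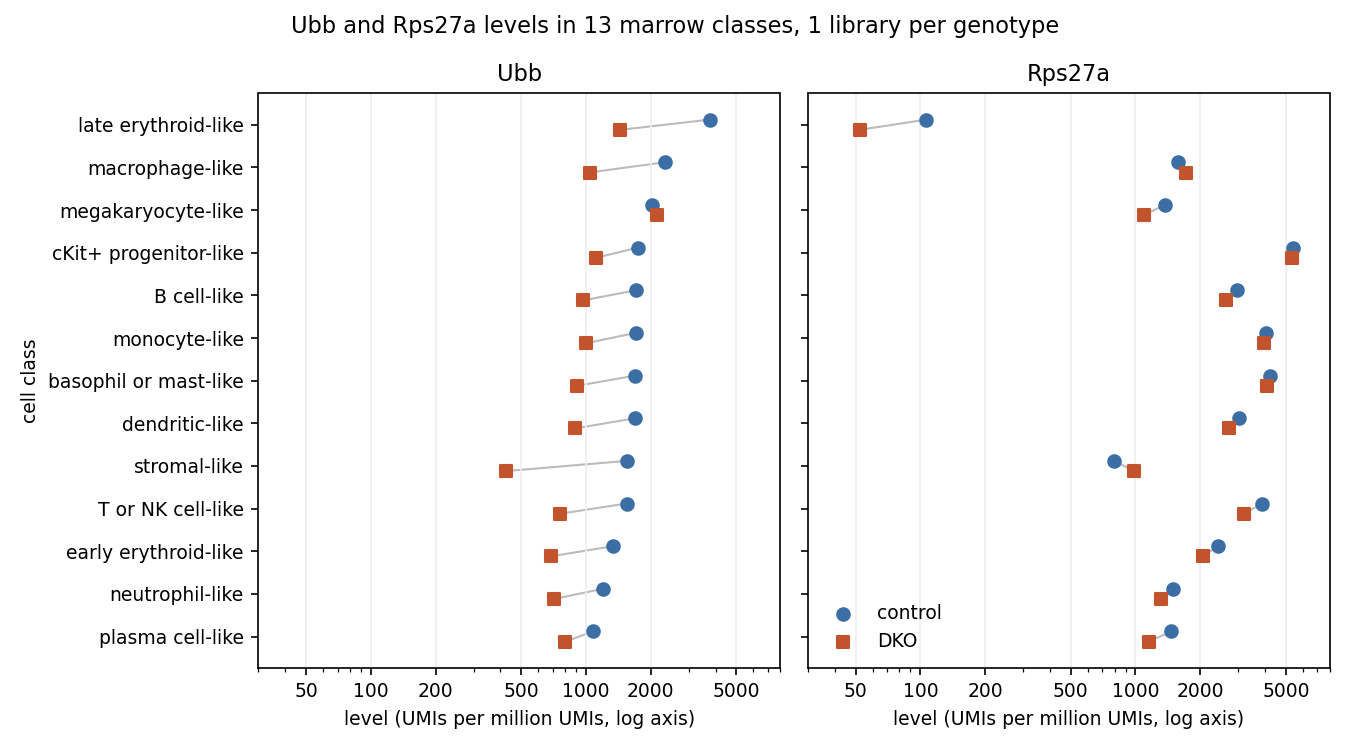
Each row is a cell class, ordered by the Ubb level of the control library, and each point is the level of 1 library in CPM on a log axis (circles, control; squares, DKO). In late erythroid-like cells Ubb was highest in the control at 3757 CPM while Rps27a was lowest at 106 CPM, and the DKO point of Ubb lies left of the control point in every class except megakaryocyte-like cells.

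The level of Rps27a in late erythroid-like cells was far below that of free RNA from broken cells. In control barcodes with at most 100 UMIs, which hold no cell, Ubb stood at 1176 CPM and Rps27a at 1737 CPM. The share of free RNA in a class was bounded by the gene whose UMIs there allowed the least of it. By that bound, taken with the profile of the empty control droplets for both libraries, at most 1.60% of control and 0.369% of DKO late erythroid-like UMIs were free RNA. This amounts to at most 26.1% of the control and 12.2% of the DKO Rps27a UMIs of the class. The corresponding values for Ubb were 0.501% and 0.300%, far below those of Rps27a. The bound rests on 1 gene per class and library, and it was 0% in DKO macrophage-like and control plasma cell-like cells. It can therefore lie below the true share and is not a strict limit. The DKO values also rest on the profile of another library. Markers of early erythroid cells summed to 2086 CPM in control and 1819 CPM in DKO cells of the class, against 2340 CPM in empty droplets. Markers of non-erythroid cell types were low in it. The summed level of the 9 neutrophil markers, none of them at 0, was 241 CPM in control and 138 CPM in DKO cells, against 8688 CPM in empty droplets.

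In the DKO library Ubb was lower than in the control in 12 of 13 classes, with the counting interval below 0 in the same 12. It was lower by at least 1.5-fold in 11 of them. In late erythroid-like cells the level was 1444 CPM (1432 to 1457, 4549 cells) against 3757 CPM, 2.60-fold lower with a ratio of -1.38 (-1.39 to -1.36). The median cell held 11 Ubb UMIs in the DKO library and 19 in the control, although the DKO cells of this class had more UMIs in all (medians of 8085 and 5409). After every cell was thinned to 1000 UMIs, 90.5% of control and 66.4% of DKO cells kept at least 1 Ubb UMI, with 120 and 85 shallower cells left out; without thinning the shares were 96.7% and 91.8%. Of the 753 genes of at least 20 CPM in this class, 23.4% were also lower by 1.5-fold or more, and 17 of them lay below Ubb. The median ratio of all 753 genes was -0.16.

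The scale matters in late erythroid-like cells, because hemoglobin genes took 84.1% of control and 86.7% of DKO UMIs. With CPM counted relative to UMIs outside hemoglobin genes, Ubb was at 23599 CPM in control and 10889 CPM in DKO cells, a ratio of -1.12 (-1.13 to -1.10), while the median of all genes was 0.10. A median control cell gave 2.64% of its non-hemoglobin UMIs to Ubb and a median DKO cell 1.18%. Ubb was therefore lower on both scales, by 2.60-fold on the first and 2.17-fold on the second.

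Among the other classes the difference in Ubb was similar in size in most blood lineages. Early erythroid-like cells had 1329 CPM in control and 685 CPM in DKO cells, a ratio of -0.96 (-0.99 to -0.93). In T or NK cell-like cells the levels were 1542 and 756 CPM (-1.03), in dendritic-like cells 1691 and 891 CPM (-0.92), and in basophil or mast-like cells 1696 and 912 CPM (-0.89). B cell-like cells had 1708 and 965 CPM (-0.82), monocyte-like cells 1704 and 1003 CPM (-0.76), neutrophil-like cells 1193 and 707 CPM (-0.75) and cKit+ progenitor-like cells 1744 and 1112 CPM (-0.65). All of these lay below the 1.5-fold line. Pooled over the named non-erythroid classes, 8805 control cells stood at 1566 CPM and 5370 DKO cells at 890 CPM, a ratio of -0.82 (-0.83 to -0.80).

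In these classes few genes were as low. The share of genes of at least 20 CPM that were lower by 1.5-fold or more was 2.24% in early erythroid-like, 1.31% in neutrophil-like, 1.49% in monocyte-like, 4.3% in dendritic-like and 1.2% in B cell-like cells. It was 4.66% in T or NK cell-like, 3.06% in cKit+ progenitor-like and 2.05% in basophil or mast-like cells. Ubb stood among the lowest of them: 33 of 4505 genes lay below it in early erythroid-like cells, 26 of 4961 in neutrophil-like cells, 45 of 6520 in monocyte-like cells and 23 of 6322 in B cell-like cells. The share was higher in the small or shallow classes, with 8.76% in macrophage-like, 12.2% in plasma cell-like, 11% in megakaryocyte-like and 5.58% in stromal-like cells.

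Of those 4 classes, plasma cell-like cells had the smallest difference among the 12 classes with less Ubb, 1073 against 802 CPM (-0.42, -0.56 to -0.29), with 101 control and 114 DKO cells. Megakaryocyte-like cells were the only class whose DKO level was not lower, at 2024 CPM in control and 2134 CPM in DKO cells (0.08, -0.02 to 0.17). Their DKO sum rested on few cells, since the 5 richest cells held 86.1% of the Ubb UMIs, against 29.6% in the 5 richest of 346 control cells. With every cell thinned to 1000 UMIs, 75.4% of control and 54.0% of DKO megakaryocyte-like cells kept a Ubb UMI, with 147 and 56 cells left out. In cells with under 5% hemoglobin UMIs the ratio of the sums was 0.34 (0.23 to 0.45). The sum and the share thus went in different directions in this class, and no direction is given for it.

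Stromal-like cells had the lowest ratio, with 1547 CPM in control and 424 CPM in DKO cells (-1.86, -2.11 to -1.63), and macrophage-like cells the next lowest outside the erythroid lineage, with 2317 and 1038 CPM (-1.16, -1.31 to -1.01). In both, hemoglobin RNA moved with it: its share of UMIs was 22.2% in control and 8.23% in DKO stromal-like cells, and 36.3% and 32.8% in macrophage-like cells. In cells under the same limit of 5% the ratio was -0.98 (-1.34 to -0.66) in 185 control and 89 DKO stromal-like cells. In 401 control and 276 DKO macrophage-like cells it was -0.68 (-0.91 to -0.46). The stromal value was thus -1.86 in all cells and -0.98 in the cells with little hemoglobin RNA, and the part of hemoglobin RNA in it was not tested. Whether Ddx41 was lost in stromal-like cells was not tested. In the other non-erythroid classes the same limit moved the Ubb ratio by less, and Ubb was lower by at least 1.5-fold in 11 of 13 classes with or without it.

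**Figure D2:**
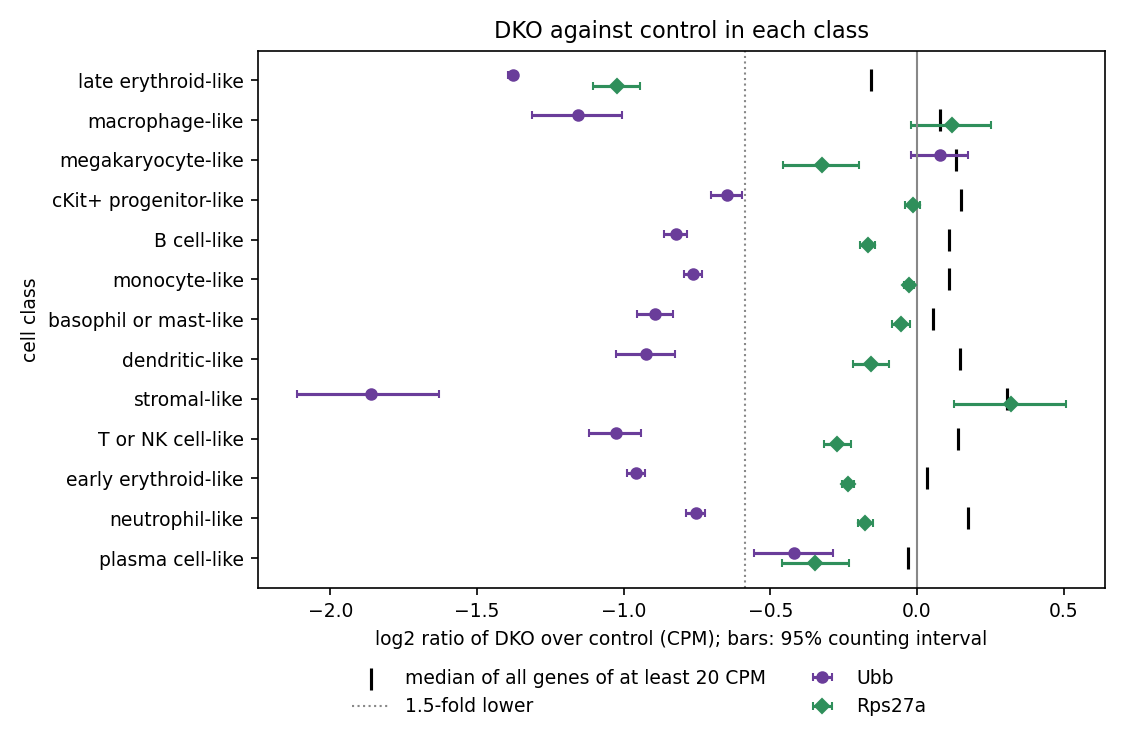
Each row is a cell class, and points give the log2 ratio of DKO over control CPM for Ubb (circles) and Rps27a (diamonds), with bars for the 95% counting interval; vertical ticks mark the median ratio of all genes of at least 20 CPM in that class. Ubb lies left of the dotted 1.5-fold line in 11 of 13 classes and Rps27a in 1, and the ticks lie between -0.16 and 0.31.

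Rps27a differed less between the libraries. Its ratio was below 0 in 11 of 13 classes, with the counting interval below 0 in 10, spanning 0 in 2 and above 0 in 1, and its median over the classes was -0.17 against -0.89 for Ubb. It was lower by 1.5-fold or more in 1 class, late erythroid-like cells, where the levels were 106 CPM in control and 52.3 CPM in DKO cells, a ratio of -1.02 (-1.11 to -0.94). On the non-hemoglobin scale the levels were 668 and 394 CPM and the ratio -0.76 (-0.84 to -0.68). The free RNA bounds of 26.1% and 12.2% apply to these values, though they are not strict limits. The part of free RNA in the difference was not tested. In all cells with at least 50% hemoglobin UMIs, whatever their cluster, the ratio was -0.52 and so short of 1.5-fold. In late erythroid-like cells 81 of 753 genes lay below Rps27a.

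In the classes rich in Rps27a its levels were close in the 2 libraries. cKit+ progenitor-like cells had 5424 CPM in control and 5368 CPM in DKO cells (-0.02, -0.04 to 0.01), monocyte-like cells 4031 and 3957 CPM (-0.03) and basophil or mast-like cells 4237 and 4077 CPM (-0.06). Somewhat lower DKO values were seen in T or NK cell-like cells with 3865 and 3201 CPM (-0.27), early erythroid-like cells with 2416 and 2053 CPM (-0.24), neutrophil-like cells with 1489 and 1318 CPM (-0.18), B cell-like cells with 2971 and 2643 CPM (-0.17) and dendritic-like cells with 3044 and 2728 CPM (-0.16). Plasma cell-like cells had 1465 and 1152 CPM (-0.35) and megakaryocyte-like cells 1368 and 1091 CPM (-0.33), where 5 DKO cells held 74.8% of the Rps27a UMIs. Macrophage-like cells had 1582 and 1716 CPM (0.12, -0.02 to 0.25). Stromal-like cells were the single class with a higher DKO value beyond counting error, at 793 and 989 CPM (0.32, 0.13 to 0.51). That direction did not hold in stromal-like cells with under 5% hemoglobin UMIs, where the ratio was -0.61, and 5 of the 97 DKO cells held 62.9% of the Rps27a UMIs.

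The number of Ubb UMIs per Rps27a UMI does not depend on how a library is scaled. In late erythroid-like cells it was 35.3 in control cells (34.1 to 36.6) and 27.6 in DKO cells (26.4 to 28.9), so Ubb outnumbered Rps27a by far in both. In early erythroid-like cells it was 0.550 and 0.334, in neutrophil-like cells 0.801 and 0.537, in monocyte-like cells 0.423 and 0.254, and in cKit+ progenitor-like cells 0.322 and 0.207. It was lower in the DKO library beyond counting error in 11 of 13 classes, and did not differ beyond it in plasma cell-like cells (0.733 and 0.696). In megakaryocyte-like cells it was 1.48 and 1.96, and no direction is given because the DKO sums of both genes rest on the few cells named above. The 11 classes include stromal-like cells (1.95 and 0.429), where hemoglobin RNA moved with Ubb. With under 5% hemoglobin UMIs that class had 347 control and 93 DKO Ubb UMIs, beside 507 and 176 Rps27a UMIs. The number of Ubb per Rps27a UMI was not compared in those cells. The log2 difference was -0.35 (-0.44 to -0.27) in late erythroid-like and -0.72 (-0.76 to -0.69) in early erythroid-like cells. Their order depends on how late cells are defined, since the difference was -0.88 in all cells with at least 50% hemoglobin UMIs and -1.14 in erythroid cells with 40 to 75%. In erythroid cells with 75 to 90% it was -0.56 (-0.69 to -0.42). With 90% or more it was -0.10 (-0.28 to 0.08), so the libraries did not differ there beyond counting error.

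**Figure D3:**
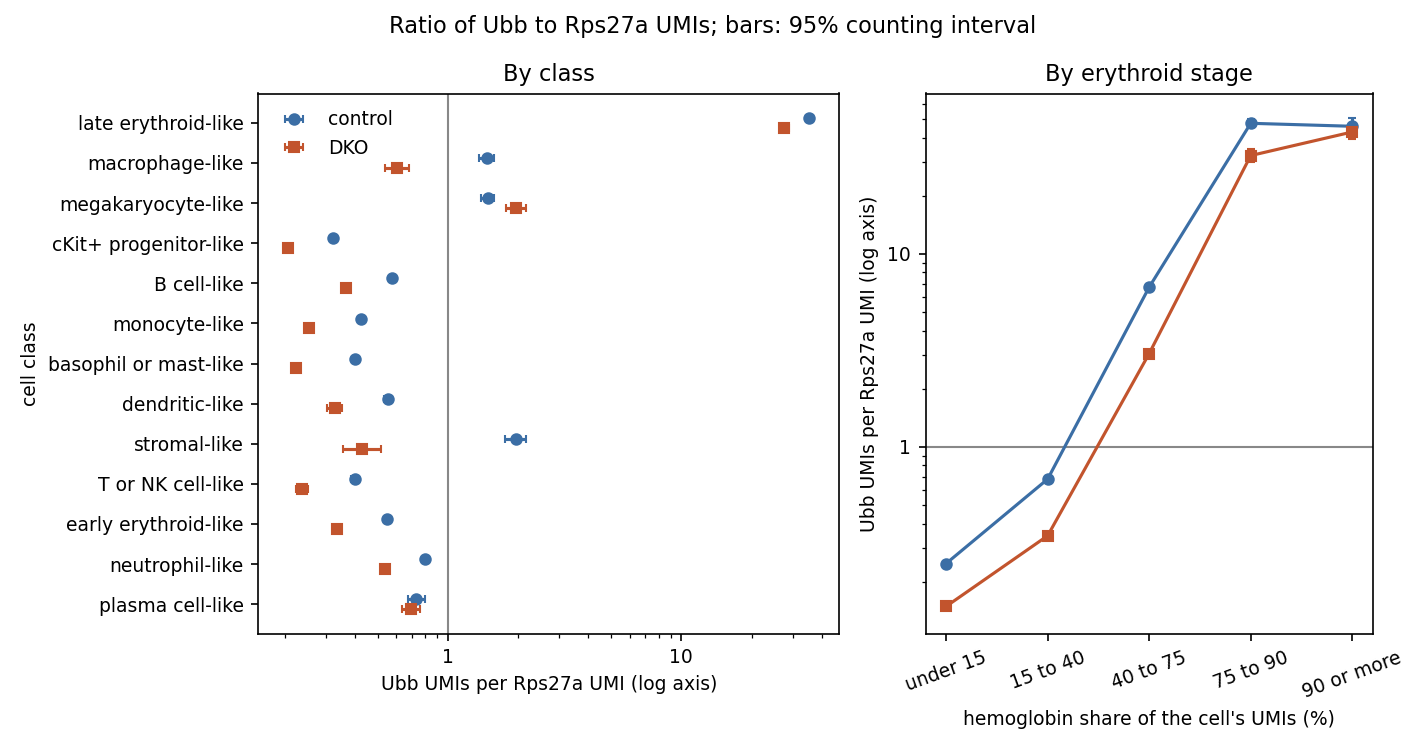
Points give the number of Ubb UMIs per Rps27a UMI on a log axis, by cell class in the left panel and by erythroid stage in the right panel (circles, control; squares, DKO; bars, 95% counting interval). From the first to the last stage the number goes from 0.248 to 45.8 in control and from 0.149 to 42.8 in DKO cells, and it is 47.4 and 32.3 at 75 to 90%.

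Erythroid cells were next divided by the share of hemoglobin UMIs of each cell, a range along maturation that was divided at 15, 40, 75 and 90%. The libraries filled these stages differently: 3670 control and 1419 DKO cells had 75 to 90% hemoglobin, and 1409 control and 2625 DKO cells had 90% or more. The last limit ran through a dense part of the distribution, with 2193 control and 1586 DKO cells within 2 percentage points of it. In control cells Ubb was at 1125 CPM under 15%, 1203 CPM at 15 to 40%, 2388 CPM at 40 to 75%, 4181 CPM at 75 to 90% and 2652 CPM at 90% or more. In the DKO library the same stages had 627, 664, 925, 1756 and 1291 CPM. The DKO cells thus had the same order of stages at lower levels, with overlapping intervals in the first 2.

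On the non-hemoglobin scale Ubb was higher at each stage than at the one before in both libraries. The control went from 1173 CPM under 15% through 1679, 5807 and 29768 to 31629 CPM at 90% or more. The DKO library went from 651 through 930, 2201 and 11614 to 17457 CPM. The lower CPM value of the last stage was therefore not seen once hemoglobin was left out of the total.

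The Ubb ratio of DKO over control was below 0 at each of the 5 stages. It was -0.84 (-0.90 to -0.79) under 15% and -0.86 (-0.92 to -0.80) at 15 to 40%, reached -1.37 (-1.40 to -1.34) at 40 to 75% and -1.25 (-1.27 to -1.23) at 75 to 90%, and was -1.04 (-1.06 to -1.01) at 90% or more. Without hemoglobin in the total, the same 5 values were -0.85, -0.85, -1.40, -1.36 and -0.86. The middle stages, from 40 to 90%, were thus farthest from 0 on both scales. With limits of 10, 30, 60 and 85% the last 2 stages were at -1.40 and -1.38, so the smaller difference at the last stage depends on where the limit lies. The share of genes of at least 20 CPM lower by 1.5-fold or more was 2.23% under 15%, 3.25% at 15 to 40%, 5.42% at 40 to 75%, 16% at 75 to 90% and 29.4% at 90% or more. At 40 to 75%, 8 of 2694 genes lay below Ubb, whereas at 90% or more 48 of 323 genes did.

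On the scale of all UMIs, Rps27a was lower at each stage than at the one before in both libraries. Without hemoglobin in the total this did not hold for the last stage. There the levels at 75 to 90% and at 90% or more were 628 and 691 CPM in control cells. In DKO cells they were 360 and 408 CPM, and the intervals of the 2 stages overlapped in each library. The control levels were 4527, 1768, 356, 88.2 and 58.0 CPM, and the DKO levels 4208, 1917, 304, 54.4 and 30.2 CPM. Its ratio was -0.11 (-0.13 to -0.08) under 15%, 0.12 (0.07 to 0.16) at 15 to 40% and -0.23 (-0.30 to -0.16) at 40 to 75%. The later stages were farther apart, at -0.69 (-0.83 to -0.57) for 75 to 90% and -0.94 (-1.12 to -0.76) for 90% or more. The value above 0 at 15 to 40% changed sign with other limits, at -0.06 for 10 to 30% hemoglobin. By the bound used above, free RNA made up at most 27.0% and 28.5% of the control Rps27a UMIs in the last 2 stages. The DKO values were 7.35% and 7.80%. They rest on the empty droplets of the control and are not strict limits.

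**Figure D4:**
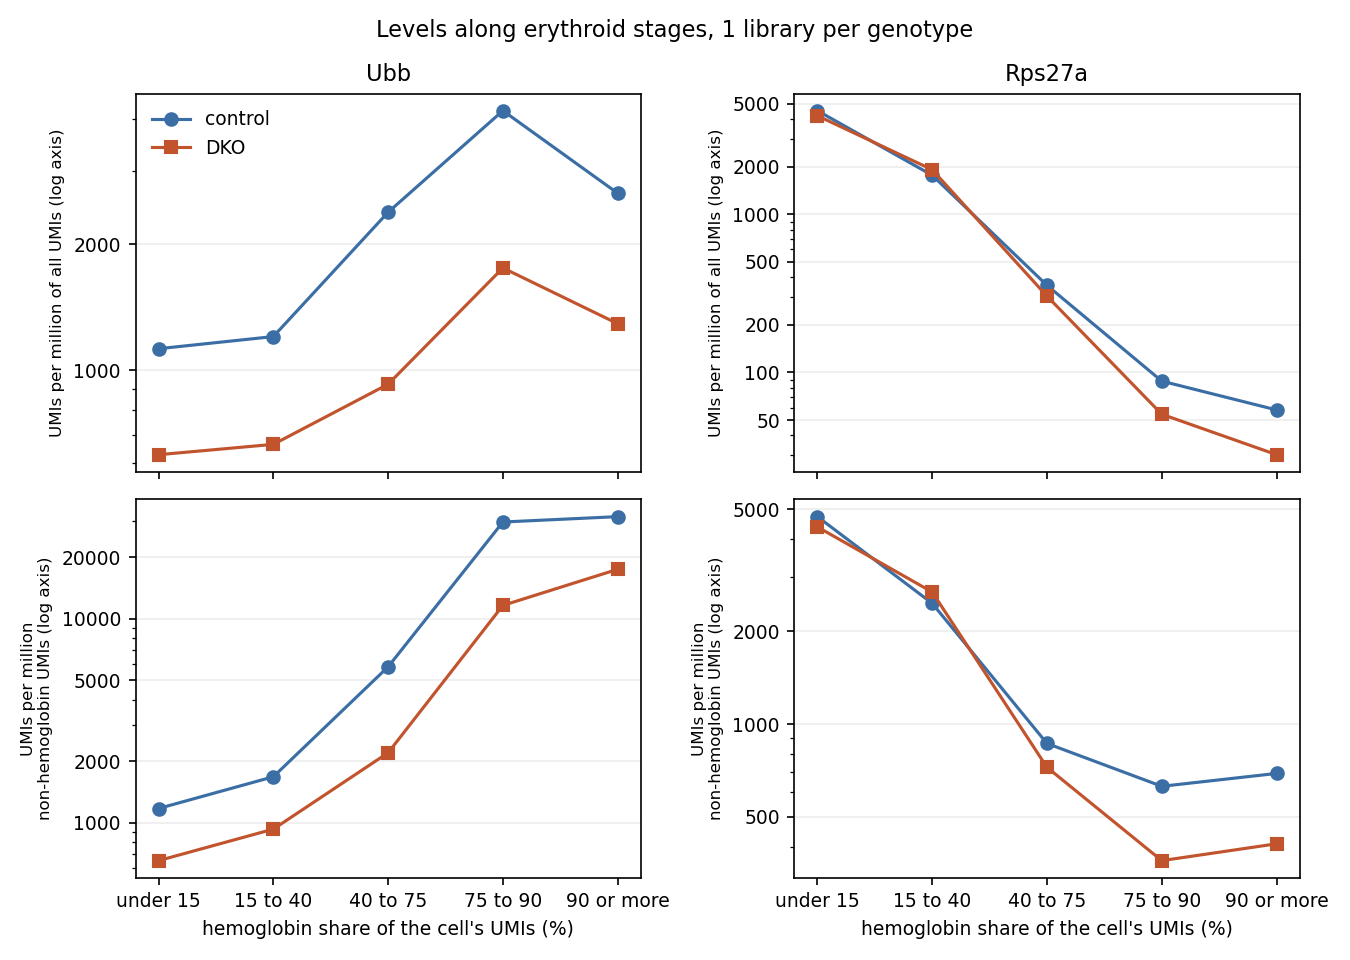
Levels of Ubb (left) and Rps27a (right) over 5 ranges of the hemoglobin share of a cell's UMIs, as CPM of all UMIs (top) and of non-hemoglobin UMIs (bottom), all on log axes (circles, control; squares, DKO). In the top panels Ubb peaks at 75 to 90%, with 4181 CPM in control and 1756 CPM in DKO cells. Rps27a goes there from 4527 to 58.0 CPM in control and from 4208 to 30.2 CPM in DKO cells. In the bottom panels Ubb is highest at 90% or more in both libraries.

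The late erythroid-like class was made up of 6 clusters, and the libraries filled them unequally. The largest in the control held 2180 control and 854 DKO cells, and the largest in the DKO library held 652 and 1019. Leading genes of the first included the interferon-response genes Isg15, which encodes a ubiquitin-like protein, and Rsad2, and also Ube2l6. Ube2l6 was among the leading genes of other late clusters too, and Isg15 among those of another. Ubb was lower in the DKO library in each of the 6 clusters, with ratios between -1.60 and -1.22. In the largest control cluster it was at 4082 and 1694 CPM (-1.27). Rps27a was also lower in each, with ratios between -1.37 and -0.94. Without hemoglobin in the total, the ratios of these clusters were smaller. They lay between -1.09 and -0.89 for Ubb and between -0.86 and -0.49 for Rps27a. The 3 early erythroid-like clusters had Ubb ratios between -1.08 and -0.81 and Rps27a ratios between -0.25 and 0.17, the latter being -0.03 without hemoglobin in the total. The lower Ubb level of the DKO library was thus seen within each of the 9 erythroid clusters.

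Genes of the ubiquitin pathway and of the small ribosomal subunit were set beside the members in late erythroid-like cells, counting those of at least 20 CPM. The E2 conjugating enzymes pass activated ubiquitin on to ligases, and 9 of the 29 listed were measured. Their median ratio was -0.08 beside -0.16 for all 753 genes, with 2 lower by 1.5-fold or more, close to the 23.4% of all genes. The lowest were Ube2s (100 and 59.4 CPM, -0.75) and Ube2c (403 and 254 CPM, -0.67), which serve the anaphase-promoting complex, and Ube2d3 (49.9 and 34.0 CPM, -0.55). The highest were Ube2v1 (21.3 and 21.1 CPM, -0.01), Ube2h (443 and 482 CPM, 0.12), the E2 partner of the CTLH ligase, and Ube2o (396 and 475 CPM, 0.26), which targets unassembled and ribosomal proteins in reticulocytes. Both of the listed E1 activating enzymes were under the minimum. No measured E2 enzyme was as low as Ubb or Rps27a. On the non-hemoglobin scale, where the median of all genes was 0.10, Ube2v1 lay above 0, at 0.25.

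Ligases and deubiquitinases lay somewhat above the median of all genes, and receptors at it. The CTLH ligase, a multi-subunit complex of erythroid maturation, had 4 of 11 subunits measured, with a median of 0.10. They were Ypel5 (101 and 93.8 CPM, -0.11), Rmnd5a (41.2 and 41.9 CPM, 0.03), Wdr26 (229 and 259 CPM, 0.18) and Ranbp10 (239 and 303 CPM, 0.34). Other erythroid ligases had 4 of 8 genes measured and a median of 0.06, from Trim10 (378 and 354 CPM, -0.10) over Fbxo7 (0.01) and Trim58 (0.10) to Cul4a (68.3 and 74.3 CPM, 0.12). Of 18 deubiquitinases, which release ubiquitin for reuse, 3 were measured, Usp15 (0.05), Otud5 (0.10) and Usp7 (40.9 and 47.8 CPM, 0.22). In each of these 3 lists, 0 genes were lower by 1.5-fold or more, beside 23.4% of all genes. The receptors and shuttles, which carry ubiquitinated cargo to the proteasome or to autophagy, had 6 of 14 measured, a median of -0.16 and 0 genes lower by 1.5-fold or more. Toward the low end lay Optn (-0.47) and Vcp (-0.18), and the highest were Tax1bp1 (-0.14), Sqstm1 (0.00) and Nbr1 (0.08). Ypel5 (0.15), Trim10 (0.17), Vcp (0.08) and Tax1bp1 (0.13) turned above 0 on the non-hemoglobin scale, and Ranbp10 passed 1.5-fold there at 0.60.

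Heat shock genes and ribosomal genes were the lists with values as low as those of the members. Of 14 heat shock genes 3 were measured, the chaperones Hsp90ab1 (77.2 and 25.3 CPM, -1.61), Hsp90aa1 (34.5 and 15.5 CPM, -1.15) and Hspa5 (41.1 and 43.4 CPM, 0.08). All 31 genes of the small ribosomal subunit were measured, and 30 were lower by 1.5-fold or more, beside 23.4% of all 753 genes, with a median of -1.10. Rps27a, at -1.02, lay within their range, and 19 of the 31 were lower than Rps27a. Rps4x (-1.33) lay toward the low end, and the highest were Rps9 (181 and 103 CPM, -0.81), Rps26 (96.1 and 62.7 CPM, -0.62) and Rps29 (193 and 133 CPM, -0.54). Ribosomal protein genes held 0.836% of control and 0.437% of DKO UMIs in these cells. On the non-hemoglobin scale the median of the 31 was -0.84, beside 0.10 for all genes.

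**Figure D5:**
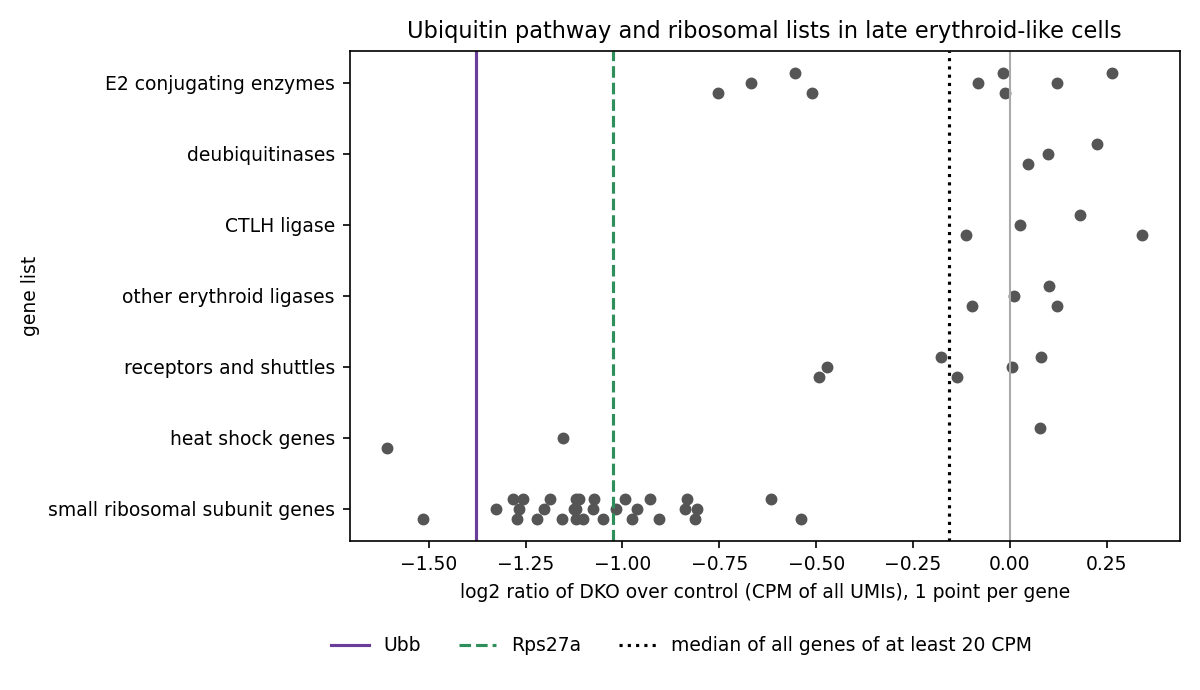
Each point is a gene of at least 20 CPM in late erythroid-like cells, placed by its log2 ratio of DKO over control CPM within 1 of 7 gene lists; vertical lines mark Ubb (solid), Rps27a (dashed) and the median of all genes (dotted). The small ribosomal subunit genes lie around the Rps27a line with a median of -1.10, and the measured E2 enzymes, ligases, deubiquitinases and receptors lie right of both member lines, between -0.75 and 0.34.

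In early erythroid-like cells the pathway lists were measured more fully. Of 23 E2 enzymes 1 was lower by 1.5-fold or more, beside 2.24% of all genes, and the median was -0.06, beside 0.03 for all 4505 genes. The medians were 0.16 for 15 deubiquitinases, 0.13 for 10 CTLH subunits, 0.19 for 7 other ligases, 0.01 for 12 receptors and shuttles and 0.20 for 10 heat shock genes. The lowest ratio among all these genes was -0.70, whereas Ubb was at -0.96. The 31 small subunit genes had a median of -0.19 and a range of -0.50 to 0.15, within which Rps27a lay at -0.24 with 12 of them lower. In neutrophil-like and B cell-like cells the small subunit medians were -0.13 and -0.15 and those of the E2 enzymes 0.02 and 0.06, while Ubb was at -0.75 and -0.82.

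The genes whose levels followed each member over the 13 classes were ranked by Pearson's r of log2(CPM + 5) in the control library, among 1309 genes of at least 100 CPM on average. The points share the libraries and their depth, and late erythroid-like cells are the extreme one for both members. For Ubb the 5 highest were the translation initiation factor Eif5 (r = 0.85), the mitochondrial membrane protein Ghitm (0.83), the E2 enzyme Ube2b (0.82), the poly(A)-binding protein Pabpc1 (0.82) and catalase, Cat (0.79). In the DKO library the r of these 5 with Ubb was lower, at 0.02, 0.61, 0.24, 0.41 and 0.44. The 5 genes were picked for a high r in the control, so a lower r in the other library cannot be read as a change. The DKO megakaryocyte-like point also rests on few cells, 5 of which held 86.1% of its Ubb UMIs. For Rps27a the 5 highest were the ribosomal protein genes Rpsa (0.99) and Rpl9 (0.98), the RNA polymerase subunit Polr1d (0.98), the mitochondrial import subunit Timm23 (0.98) and Naca (0.98), a factor that binds nascent chains at the ribosome, and in the DKO library their r lay between 0.98 and 0.99. The r of the 2 members with each other was -0.57 over control and -0.24 over DKO classes.

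Cells of 2 further clusters with at least 50 cells in each library were left unnamed. A smaller unnamed cluster of 17 control and 0 DKO cells was not compared. A cluster with genes of mature neutrophils (Il1b, Csf3r) held 1478 control and 1653 DKO cells, with Ubb at 1490 and 929 CPM (-0.68) and Rps27a at 1305 and 1277 CPM (-0.03). A cluster with Mertk, Cd209a and MHC class II genes held 437 and 227 cells, with Ubb at 1373 and 698 CPM (-0.98) and Rps27a at 2943 and 3061 CPM (0.06). Their values lay within the range of the named classes for both genes.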

How the data were processed

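Single cells of femoral bone marrow were measured with the Chromium Single Cell 3' v3 kit in 1 control and 1 DKO mouse. The authors deposited raw UMI counts made with Cell Ranger 7.1.0 (file headers) on mm10 (submitters' processing notes), without normalization. The control matrix lists 1518290 barcodes, and its cells were called here: barcodes above 4869 UMIs (the 99th percentile of the top 3000 divided by 10), plus smaller ones of at least 500 UMIs whose composition differed from that of empty droplets (100 UMIs or fewer) in 10000 Monte Carlo draws at an adjusted p of 0.01. Then 172 control and 215 DKO cells past a mitochondrial share of 20% were removed, and 409 and 198 doublets that Scrublet called at each library's own threshold.

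Clustering used scanpy 1.11.5 with 2000 variable genes, without Ubb, Rps27a, Ddx41 and Cgas, 30 principal components, 15 neighbors and Leiden resolution 1.0, giving 28 clusters. Clusters were named from marker lists and called "-like". Unnamed clusters, and classes with fewer than 50 cells in a library, were not compared as classes. UMIs of the cells of a class were added up in each library and given as CPM, and the log2 ratio of the libraries was taken with 1 count added to each side, with exact conditional binomial, Poisson or Clopper-Pearson 95% intervals. Thinned shares are expected values. Because each genotype is 1 library, no test was run between them. The ratio and its interval were tested on class sums of late erythroid-like cells simulated with counting error alone. Those sums held no spread between cells, mice or libraries, so the test does not bear on such spread.

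Positions, exons and coding sequences came from GENCODE M21 (GRCm38). Named genes were the members, the 5 genes most like each of them over the control classes, and the 3 lowest and 3 highest genes of each list in late erythroid-like cells. The members, marker lists and gene lists were chosen with earlier results of these data known. Other ubiquitin-coding genes, and some genes that this rule names in the lists, are not reported here.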

Additional observations from a re-analysis of the deposited data

Results flagged for a closer look

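Rps27a in stromal-like cells lay above 0, with a log2 ratio of 0.32 for DKO over control, where late erythroid-like cells lay at -1.02. The opposite directions of the 2 classes drew attention, and the difference between them was not tested. The class held 219 control and 97 DKO cells, and in those with under 5% hemoglobin UMIs the ratio was -0.61. Rps27a in the unnamed cluster with Mertk and MHC class II genes also lay above 0, at 0.057 with a lower bound of 0.0029, and this difference from late erythroid-like cells was not tested either.

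Control barcodes that were not called as cells enter no comparison, yet 12944 Ubb UMIs and 20852 Rps27a UMIs lay in 1175094 such barcodes. The DKO matrix holds called cells, so the same count was not made there.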

How the results depend on the processing

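In late erythroid-like cells both genes stayed below 0 under every setting that gave a value. The Ubb ratio of -1.38 became -1.41 with only barcodes above the order-of-magnitude threshold, -1.36 at resolution 2.0, -1.12 without hemoglobin genes in the total, -1.15 without hemoglobin and ribosomal protein genes, -1.41 as a mean over cells, -1.42 thinned to 1000 UMIs, -1.42 with 5% free RNA taken out and -1.39 in all cells with at least 50% hemoglobin UMIs. The Rps27a ratio of -1.02 became -0.90 with a mitochondrial limit of 10%, -0.90 at resolution 0.5, -1.18 at resolution 2.0, -0.76 without hemoglobin genes, -0.79 without hemoglobin and ribosomal protein genes, -0.85 as a mean over cells, -0.88 thinned and -0.52 in all cells with at least 50% hemoglobin UMIs. The log2 ratio of Ubb UMIs per Rps27a UMI, -0.35, became -0.46, -0.48 and -0.18 with the mitochondrial limit and at the 2 resolutions, -0.57 as a mean over cells, -0.54 thinned and -0.88 at 50% hemoglobin. With 5% free RNA taken out no Rps27a value was left. The number of classes with Ubb lower by 1.5-fold was 11, and 4 at 2-fold; it was 9 above the order-of-magnitude threshold and 13 thinned. For Rps27a it was 1, and 2 with non-erythroid cells under 5% hemoglobin, a setting added after seeing the data. The thinned ratios are expected values, so they equal the mean over cells with cells under 1000 UMIs left out.

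With stage limits of 10, 30, 60 and 85%, the Ubb ratios from the second stage on were -0.95, -1.04, -1.40 and -1.38, and those of Rps27a at the second to the fourth stage were -0.059, a change of sign, -0.067 and -0.45. Without hemoglobin in the total, the last 2 stages were -1.36 and -0.86 for Ubb, and the last was -0.76 for Rps27a. The cause of these shifts was not tested. With 1 library per genotype no leave-one-out and no paired analysis was possible because there are no replicates, and a difference between mice cannot be told apart from one between genotypes. Low Rps27a counts in mature cells, and few cells in the megakaryocyte-like and stromal-like classes, limit the precision of those values.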
